A study of Homo sapiens with 16 samples.

Results

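The 10 enzymes described here make up most of the route from serine to purine nucleotides: the folate one-carbon enzymes SHMT1, SHMT2, MTHFD1, MTHFD1L and MTHFD2, and the de novo purine synthesis enzymes PPAT, GART, PAICS, ADSL and ATIC. They were chosen by name, each as the row of the count table whose Ensembl identifier belongs to that symbol, and all 10 were found among the 58051 genes of the table. RNA was sequenced from LNCaP cells, an androgen-responsive human prostate cancer cell line, in 4 groups of 4 libraries. In the knockdown experiment the cells received Allstar control siRNA (siCtrl) or XBP1-specific siRNA (siXBP1) and were kept for 2 days. In the inhibitor experiment they received DMSO (Vehicle) or 10 µM MKC8866, an inhibitor of the IRE1α endoribonuclease, for 24 h. All 16 libraries, controls included, came from cells that were then given thapsigargin, which stresses the endoplasmic reticulum, at 30 nM for 3 h, so no group shows unstressed cells. XBP1 mRNA is the substrate that IRE1α splices under such stress, so siXBP1 lowers the transcript itself whereas MKC8866 acts on its splicing. Each library held 28713607 to 34509488 counted fragments, and the 10 enzymes had between 1211 and 31105 of them apiece in a library.

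One-carbon metabolism moves single carbons on the cofactor tetrahydrofolate. Serine hydroxymethyltransferase takes the carbon from serine, SHMT2 in mitochondria and SHMT1 in the cytosol. In mitochondria MTHFD2 oxidises the folate-bound carbon and MTHFD1L releases it as formate, and in the cytosol the trifunctional enzyme MTHFD1 puts formate back on folate. Purine synthesis then uses this formyl folate in the steps run by GART and ATIC. PPAT catalyses the committed step from phosphoribosyl pyrophosphate, and GART, PAICS, ADSL and ATIC, with PFAS, carry the intermediate on to inosine monophosphate. Growing tumour cells are known to draw heavily on both pathways.

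The genes PPAT and PAICS lie head to head on chromosome 4 with PPAT on the minus strand at chr4:56393362-56435615 and PAICS on the plus strand at chr4:56435741-56464579 (GRCh38). The 125 bases between their annotated starts are shown because both genes fell with siXBP1 and share this stretch. It lies at chr4:56435616-56435740, is 76% G or C, and is written on the plus strand with its 3 GC boxes (GGGCGG, searched on both strands) in capitals.
PPAT-PAICS: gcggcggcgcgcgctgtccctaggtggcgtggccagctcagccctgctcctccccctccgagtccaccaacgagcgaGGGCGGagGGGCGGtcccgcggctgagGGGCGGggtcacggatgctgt

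Promoter windows of 300 bases, from 250 before to 50 after an annotated start (RefSeq sequences, GRCh38), were at hand for 8 of the 10 members, not for SHMT2 and ADSL. The windows of 5 members held the palindromic E-box CACGTG, the core sequence bound by the MYC family: MTHFD1, MTHFD1L, PPAT, PAICS and ATIC. For comparison, 8.77% of the 27305 genes with a window held one, and 7.26% of the 35116 windows. The 8 members had 15 windows, and a gene with more windows has more places to match. The share per gene is therefore only a rough comparison, here and for the motifs below. The sites are shown with 10 bases on either side, each read along the strand of its gene, with the E-box in capitals. That of PPAT is also the one in the PAICS window, read from the other strand.
MTHFD1 (chr14:64388328-64388353, plus strand): agtccctaagCACGTGggttgggttg
MTHFD1L (chr6:150866322-150866347, plus strand): cgcccggctcCACGTGcgcagccggc
PPAT (chr4:56435782-56435807, minus strand): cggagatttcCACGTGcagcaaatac
ATIC, upstream site (chr2:215312003-215312028, plus strand): gccggcgggcCACGTGataagcccgg
ATIC, downstream site (chr2:215312078-215312103, plus strand): cctacctgcgCACGTGgtgccgccgc

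The C/EBP-ATF element TGATGNAA, bound by ATF4 with its partners, was found in 1 member, MTHFD1L, against 4.46% of genes. It is shown in capitals in the same manner.
MTHFD1L (chr6:150866347-150866374, plus strand): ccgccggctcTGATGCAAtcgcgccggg

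The letters TGACGTG, a core of the element bound by spliced XBP1, were in no member window and in 2.40% of genes. GC boxes were in 6 members, against 48.3% of genes. The 1 window of MTHFD2 held none of these 4 motifs. Members with an E-box included 3 that fell with siXBP1 (MTHFD1, PPAT and PAICS), 1 that rose (MTHFD1L) and 1 that was not called (ATIC). A match to these letters is not a measured binding site, and any part of the motifs in the responses was not tested.

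XBP1 itself was read first as a check of the labels. Its level in CPM (counts scaled by the size of the library) was 382, 426, 365 and 362 in siCtrl and 51.5, 54.2, 54.4 and 53.4 in siXBP1. It was 486, 536, 479 and 503 in Vehicle and 581, 614, 574 and 540 in MKC8866. There it was called higher (log2 0.20, adjusted p = 0.00493, edgeR quasi-likelihood). The counts do not separate spliced from unspliced mRNA, so the XBP1 level gives no check that MKC8866 lowered splicing. The libraries carried the luminal markers of LNCaP cells, the lowest of 9 at 94.4 CPM, and KRT5, PTPRC, PECAM1 and DCN stayed at or under 0.104 CPM in every library. Other markers of the same lists were detected, VWF (endothelium) at 7.39 to 10.5 CPM, COL1A1 (fibroblasts) at 24.9 to 36.3 CPM and the basal keratin KRT14 at up to 1.19 CPM. Of the luminal markers 5 of 9 fell with siXBP1 and their summed level was 3306 to 3404 CPM against 3851 to 4082 in siCtrl, and of 3 fibroblast markers COL3A1 rose (summed level 35.7 to 38.6 against 27.3 to 35.3 CPM). The part of these in the results was not tested. In bulk RNA, fewer cells of a kind and less of an mRNA per cell cannot be told apart.

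After XBP1 knockdown 7 of the 10 enzymes fell, 1 rose and 2 were not called. The test was edgeR's quasi-likelihood test over 21021 genes, with calls at an adjusted p under 0.05, and it called 18.2% of these genes lower and 16.5% higher. The median log2 fold change was -0.17 over the 10 enzymes and 0.0050 over all genes tested. In 7 members every siXBP1 library lay below every siCtrl library, in MTHFD1L every one lay above, and in SHMT2 and ATIC the groups overlapped. Over all genes tested 16.7% lay wholly below and 15.6% wholly above.

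**Figure D1:**
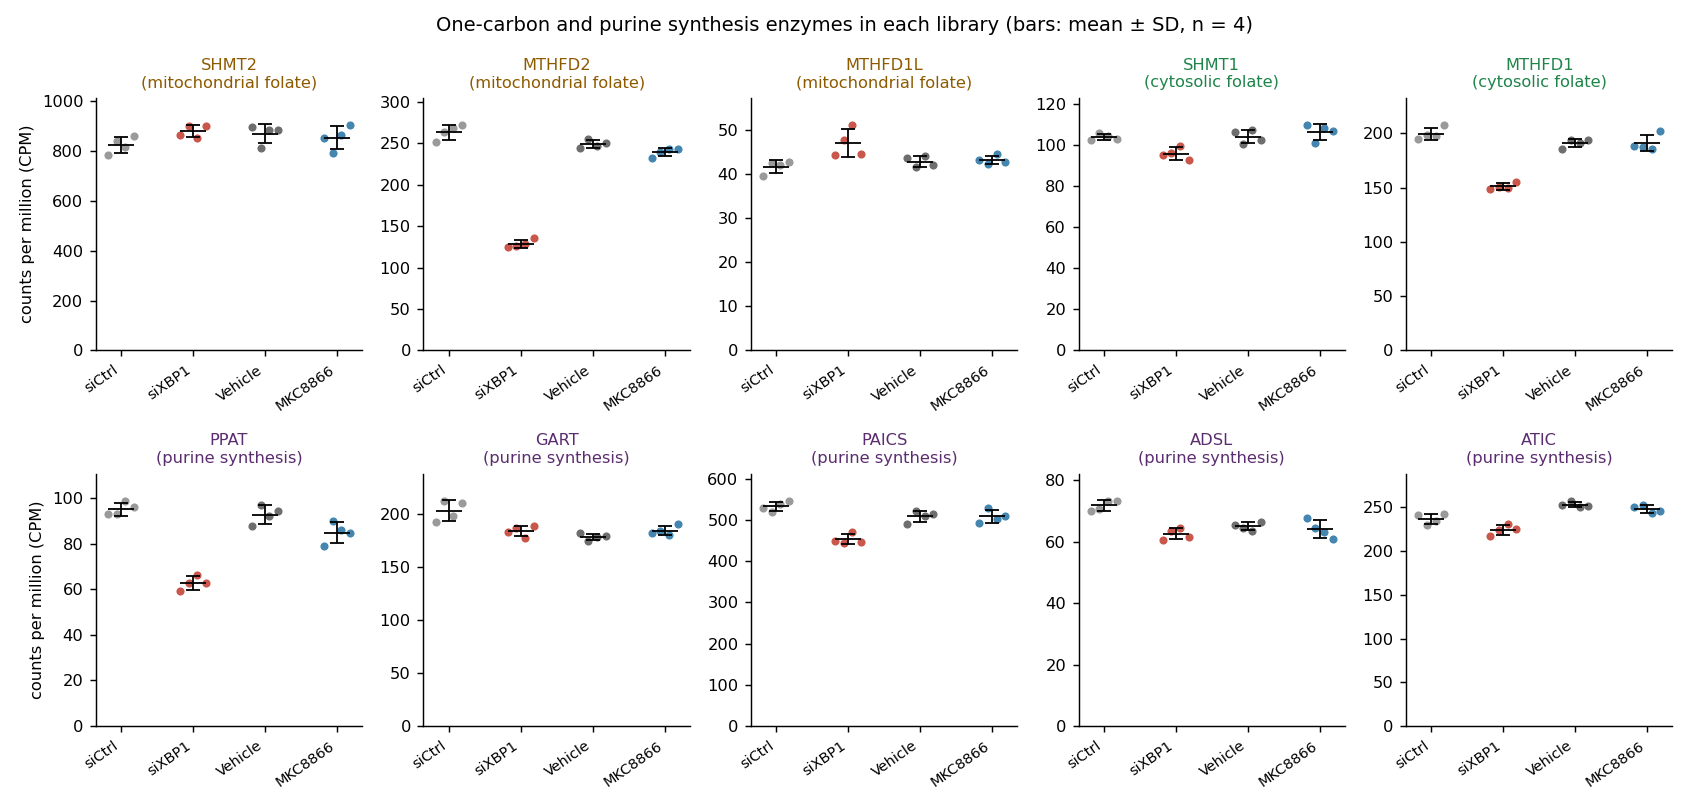
Level of each enzyme in CPM (vertical axes, each from 0) in the 4 libraries of siCtrl, siXBP1, Vehicle and MKC8866; points are libraries and black bars the mean and SD. MTHFD2, MTHFD1 and PPAT show siXBP1 points well under the other 3 groups, with MTHFD2 at 125 to 136 CPM against 251 to 272 in siCtrl.

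The mitochondrial enzymes did not move together. MTHFD2, the mitochondrial dehydrogenase, was at 251, 263, 268 and 272 CPM in siCtrl and at 125, 126, 128 and 136 CPM in siXBP1. The siXBP1 libraries were tightly grouped far below all siCtrl libraries. The fall was -1.04 ± 0.04 on the log2 scale (SE, n = 4 libraries per group, a fold of 0.487), with an adjusted p of 5.66e-15 in edgeR's quasi-likelihood test. SHMT2, which feeds the mitochondrial pathway from serine, was at 786, 839, 816 and 862 CPM in siCtrl and at 865, 903, 854 and 903 CPM in siXBP1. The highest siCtrl library overlapped the lowest siXBP1 library, and the log2 fold change of 0.09 ± 0.04 was not called (adjusted p = 0.0762, edgeR quasi-likelihood). MTHFD1L, the formate-releasing synthetase, was at 39.7, 42.5, 42.1 and 42.8 CPM in siCtrl and at 44.5, 47.8, 51.2 and 44.7 CPM in siXBP1. All of its siXBP1 libraries were higher, replicate 3 most of all. It rose by 0.17 ± 0.05 (log2, adjusted p = 0.0149, edgeR quasi-likelihood), and without siXBP1 replicate 3 the change was 0.12 and no longer called (adjusted p = 0.0671).

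Both cytosolic folate enzymes fell. MTHFD1 was at 195, 198, 197 and 208 CPM in siCtrl and at 148, 151, 150 and 155 CPM in siXBP1, with a wide gap between the groups. Its log2 fold change was -0.40 ± 0.04 (adjusted p = 1.53e-08, edgeR quasi-likelihood), a fold of 0.755. SHMT1 was at 102, 106, 104 and 103 CPM in siCtrl and at 94.8, 96.0, 99.6 and 92.3 CPM in siXBP1. The groups were apart but close, and the change of -0.12 ± 0.04 (adjusted p = 0.0214, edgeR quasi-likelihood) was the smallest of the 7 falls. In 5 of the 8 fits that each left out 1 library SHMT1 was no longer called: without siCtrl replicate 2 or 3, or siXBP1 replicate 1, 2 or 4 (adjusted p 0.0505 to 0.111).

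Of the 5 purine enzymes 4 fell, PPAT by the largest amount. PPAT, the amidotransferase of the committed step, was at 92.9, 93.0, 98.9 and 96.1 CPM in siCtrl and at 59.2, 62.7, 66.2 and 63.0 CPM in siXBP1. All siXBP1 libraries were well below the lowest control, and the log2 fold change was -0.60 ± 0.05 (adjusted p = 4.12e-10, edgeR quasi-likelihood), a fold of 0.657. PAICS, the bifunctional enzyme of the carboxylase and succinocarboxamide synthetase steps, was at 528, 520, 538 and 547 CPM in siCtrl and at 450, 445, 471 and 446 CPM in siXBP1. It changed by -0.24 ± 0.04 with clearly separate groups (adjusted p = 2.31e-05, edgeR quasi-likelihood). The genes on either side of the stretch printed above thus both fell, with 95% intervals of -0.70 to -0.51 for PPAT and -0.32 to -0.16 for PAICS that did not overlap. The PPAT to PAICS ratio of counts per kb, a comparison chosen after its values were seen and given with no test, was 0.247 ± 0.00520 in siCtrl and 0.192 ± 0.00652 in siXBP1 (SD, n = 4).

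ADSL, the adenylosuccinate lyase that acts at a late step, was at 69.9, 70.7, 73.4 and 73.4 CPM in siCtrl and at 60.7, 63.6, 64.5 and 61.5 CPM in siXBP1. Its groups did not overlap and its log2 fold change was -0.20 ± 0.04 (adjusted p = 7.35e-04, edgeR quasi-likelihood). GART, trifunctional and the first user of formyl folate, was at 192, 213, 198 and 211 CPM in siCtrl and at 184, 187, 178 and 189 CPM in siXBP1. The siCtrl libraries were scattered, with the lowest just above the highest siXBP1 library, and the fall was -0.15 ± 0.04 (adjusted p = 0.00597, edgeR quasi-likelihood). ATIC, which closes the ring and uses formyl folate again, was at 241, 230, 234 and 243 CPM in siCtrl and at 218, 224, 231 and 225 CPM in siXBP1. Here the groups touched, and the log2 fold change of -0.08 ± 0.04 was not called (adjusted p = 0.105, edgeR quasi-likelihood). PFAS, the remaining enzyme of the route to inosine monophosphate and no member of the 10, was at 54.4, 62.0, 55.6 and 56.3 CPM in siCtrl and at 50.8, 47.2, 47.0 and 46.9 CPM in siXBP1. It too fell, by 0.26 on the log2 scale (adjusted p = 2.51e-04, edgeR quasi-likelihood).

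MKC8866 left the 10 enzymes close to Vehicle, and none was called in edgeR's quasi-likelihood test without pairing. A fit blocked on the replicate number called PPAT lower (adjusted p = 0.00133, edgeR quasi-likelihood), as described below. Over all 21045 genes tested 3.11% were called lower and 1.36% higher. Without pairing, PPAT had the lowest unadjusted p of the 10 (0.0106, edgeR quasi-likelihood) and MTHFD2 the next (0.119). The log2 fold changes ran from -0.13 to 0.05 with a median of -0.013, against 0.0027 over all genes. In the unpaired fit the 95% intervals of the 10 enzymes lay between -0.23 and 0.12.

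**Figure D2:**
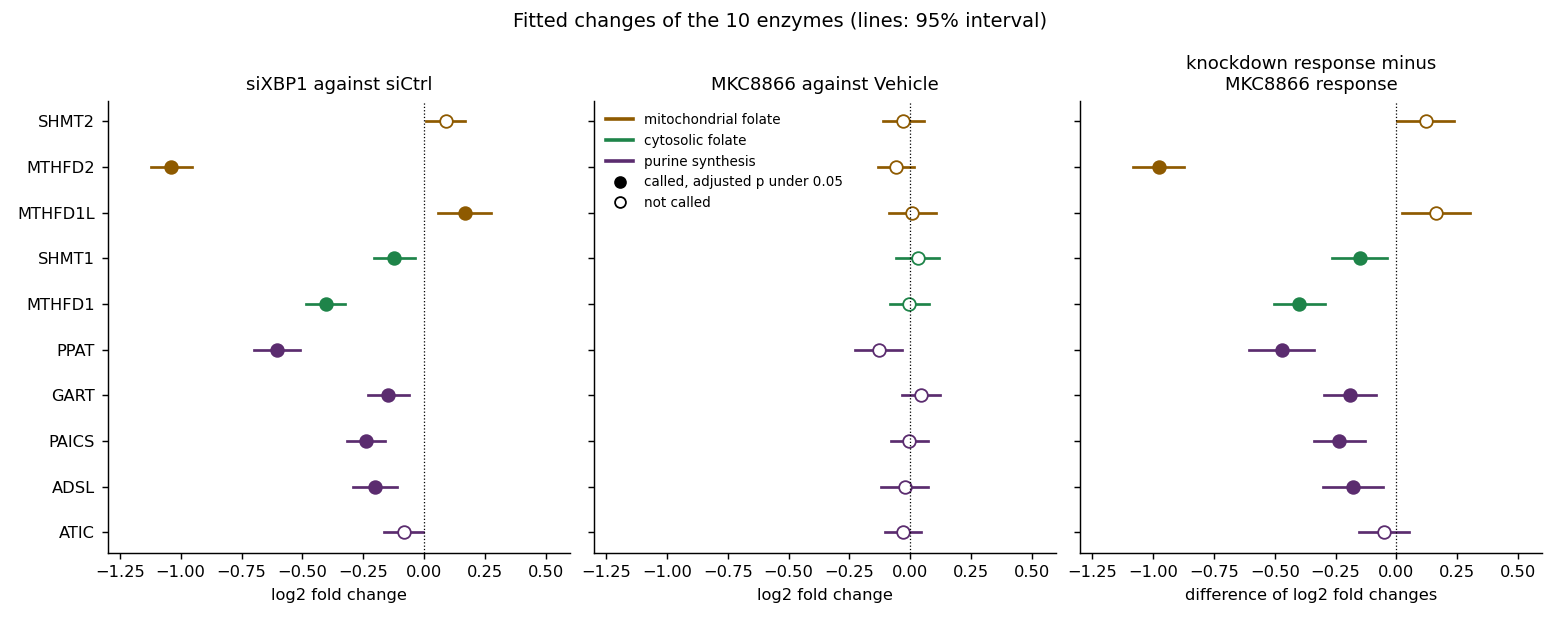
Fitted log2 fold change of each enzyme (dots) with its 95% interval (lines) for siXBP1 against siCtrl, for MKC8866 against Vehicle, and for the difference between these responses; filled dots are called at an adjusted p under 0.05 and colours give the compartment or pathway. Knockdown values spread from -1.04 to 0.17, while MKC8866 values stay between -0.13 and 0.05. The fits shown are unpaired.

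PPAT came nearest to a call without pairing. It was at 87.6, 97.1, 92.3 and 94.3 CPM in Vehicle replicates 1 to 4 and at 79.0, 89.9, 86.1 and 84.6 CPM in MKC8866 replicates 1 to 4. The ranges overlapped, yet each MKC8866 library was below the Vehicle library of the same number. The log2 fold change was -0.13 ± 0.05 (adjusted p = 0.141, edgeR quasi-likelihood). Libraries of the inhibitor experiment with the same number deviated together, and a fit blocked on that number called PPAT (-0.13 ± 0.03, adjusted p = 0.00133, edgeR quasi-likelihood), where 7.05% of genes were called lower. Without MKC8866 replicate 2 it was called too (-0.16, adjusted p = 0.0340). The PPAT to PAICS ratio was 0.252 ± 0.00441 in Vehicle and 0.231 ± 0.00697 in MKC8866 (SD, n = 4, no test).

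MTHFD2, with the largest knockdown response, was at 244, 255, 247 and 251 CPM in Vehicle and at 232, 240, 243 and 243 CPM in MKC8866. All MKC8866 libraries were just below all Vehicle libraries, as in 5.15% of all genes tested and in no other member. The log2 fold change was -0.06 ± 0.04 with a 95% interval of -0.13 to 0.02 (adjusted p = 0.491, edgeR quasi-likelihood). MTHFD1 was at 186, 194, 191 and 194 CPM in Vehicle and at 189, 187, 186 and 202 CPM in MKC8866, intermingled, with a change of -0.0031 ± 0.039. PAICS was likewise intermingled, at 490 to 522 CPM in Vehicle and 493 to 530 CPM in MKC8866. The remaining 6 members overlapped as well and changed by -0.03 to 0.05.

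The knockdown and MKC8866 responses differed for 7 of the 10 enzymes, tested as an interaction over all 16 libraries and 20357 genes. The knockdown response was lower in 12.7% of genes and higher in 10.6%. In every one of the 7 the knockdown response was the lower. The difference was -0.98 ± 0.05 for MTHFD2 (log2, adjusted p = 6.01e-15), -0.47 ± 0.07 for PPAT (adjusted p = 1.96e-06) and -0.40 ± 0.05 for MTHFD1 (adjusted p = 5.43e-07, edgeR quasi-likelihood in each case). It was -0.23 for PAICS, -0.19 for GART, -0.18 for ADSL and -0.15 for SHMT1 (adjusted p from 8.52e-04 to 0.0475, edgeR quasi-likelihood). The last pair was weakly supported, since ADSL lost its call in 6 and SHMT1 in 12 of the 16 fits without 1 library.

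MTHFD1L and SHMT2 lay on the other side of 0, at 0.16 ± 0.07 and 0.12 ± 0.06, and were not called (adjusted p = 0.0886 and 0.141, edgeR quasi-likelihood). Blocked on the replicate number they were called higher (adjusted p = 0.0448 and 0.0254). ATIC showed no called difference (-0.05, 95% interval -0.15 to 0.05). The experiments had separate controls, different pretreatment times, and transfection in only the knockdown experiment, so the kind of inhibition and the experiment cannot be told apart.

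The control arms of the experiments differed in some enzymes. Comparing Vehicle with siCtrl in the same fit, 2 of 10 were called lower and 1 higher in Vehicle, where 7.65% of all genes were called lower and 7.39% higher. GART was lower in Vehicle, at 182, 175, 178 and 179 CPM, by 0.18 on the log2 scale (adjusted p = 9.47e-04, edgeR quasi-likelihood). These Vehicle values were also lower than or beside those of siXBP1, so GART in siXBP1 cells was not below its level in the other control. ADSL was lower in Vehicle as well, at 65.5, 64.5, 63.6 and 66.6 CPM (log2 -0.13, adjusted p = 0.0287), and ATIC was higher, at 252, 258, 251 and 252 CPM (log2 0.10, adjusted p = 0.0435, edgeR quasi-likelihood). The siXBP1 libraries of ADSL, at 60.7 to 64.5 CPM, overlapped those of Vehicle. The ADSL and ATIC calls between controls were lost in several other settings. These 3 enzymes did not overlap between the controls, nor did MTHFD1, which lay lower in Vehicle and was not called (log2 -0.05, adjusted p = 0.391, edgeR quasi-likelihood), and over all genes 9.40% lay wholly below and 8.12% wholly above. The siXBP1 levels of MTHFD2, MTHFD1, PPAT, PAICS and, by a narrow margin, SHMT1 were below the lowest library of every other group. The share of all genes below every other group was not computed, so no more is read from this. Below siCtrl alone lay 16.7% of genes.

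The level of each enzyme, set per kb of annotated exon, spanned a wide range within the pathway. In siCtrl the order was SHMT2 at 171 CPM per kb, PAICS at 70.9, ATIC at 60.3, MTHFD2 at 54.1, GART at 26.2, MTHFD1 at 21.3, PPAT at 17.5, SHMT1 at 14.3, ADSL at 10.1 and MTHFD1L at 8.32 (means, n = 4). No neighbours in that order overlapped over the 4 libraries. The place of MTHFD2 depends on the length used, because 33.2% of its exon bases are shared with another gene and were left uncounted. With shared bases taken out of the length, a choice made after seeing the data, MTHFD2 was second at 81.1 CPM per kb in siCtrl, above PAICS, and the order of the other 9 was kept. The mitochondrial enzymes thus held both the highest and the lowest place, and the committed enzyme PPAT stood at the seventh. In siXBP1 cells PPAT was at 11.5 CPM per kb, under SHMT1 at 13.1. MTHFD2 had dropped from 54.1 to 26.4, above GART at 23.8 without overlap, and over unshared bases it dropped from 81.1 to 39.6 with GART at 24.6.

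MTHFD1L and ADSL also changed places in siXBP1, at 9.37 ± 0.63 and 8.80 ± 0.25 CPM per kb (SD, n = 4), with overlapping libraries. Vehicle and MKC8866 kept the siCtrl order over the full exon length. PAICS and ATIC overlapped in Vehicle (67.7 and 64.4 CPM per kb), and in MKC8866 PPAT overlapped SHMT1 (15.6 and 14.6) and ADSL overlapped MTHFD1L (9.01 and 8.61).

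**Figure D3:**
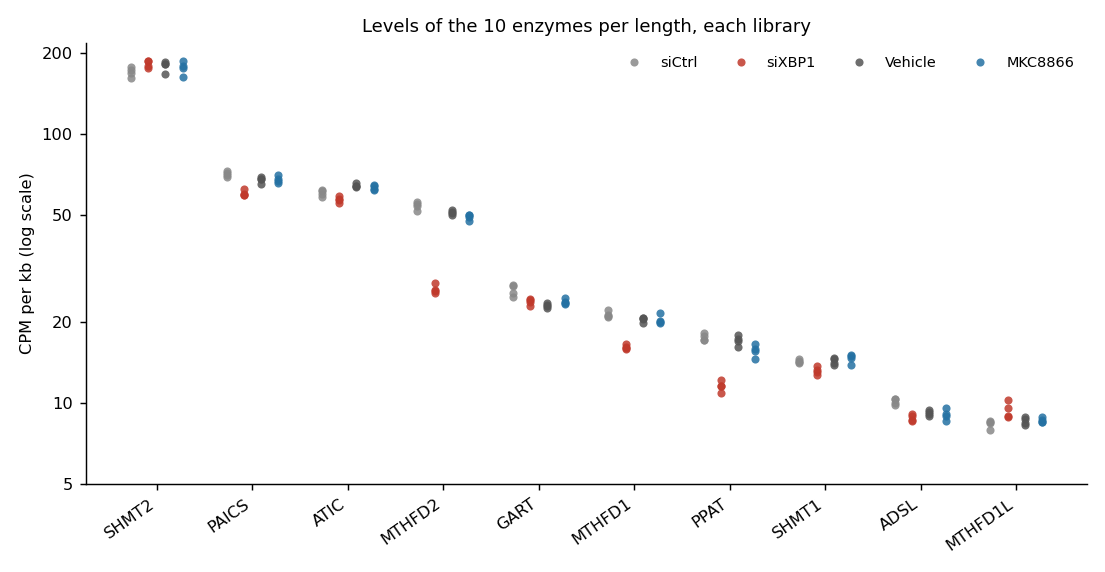
CPM per kb of exon (vertical log axis) of each enzyme in each library, with genes ordered by their siCtrl mean and one colour per group. SHMT2 stands at the top near 171 CPM per kb in siCtrl and MTHFD1L at the bottom near 8.32, and the siXBP1 points of MTHFD2 drop to 26.4 CPM per kb. The length is that of all exons, of which 33.2% is shared with another gene in MTHFD2.

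Ratios of mitochondrial to cytosolic enzymes do not depend on how a library is scaled. The SHMT2 to SHMT1 ratio of counts per kb was 11.6, 11.9, 11.8 and 12.6 in siCtrl and 13.7, 14.2, 12.9 and 14.7 in siXBP1, so every siXBP1 library was higher. The MTHFD1L to MTHFD1 ratio was 0.380, 0.400, 0.399 and 0.385 in siCtrl and 0.561, 0.591, 0.639 and 0.537 in siXBP1, again with every siXBP1 library higher. The MTHFD2 to MTHFD1 ratio was 2.48, 2.56, 2.62 and 2.52 in siCtrl and 1.62, 1.61, 1.65 and 1.68 in siXBP1, with every siXBP1 library lower. MTHFD2 thus stood lower against its cytosolic counterpart in all siXBP1 libraries, and SHMT2 and MTHFD1L stood higher against theirs.

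The log2 ratio differed by 0.21 ± 0.05 for SHMT2 to SHMT1, 0.57 ± 0.06 for MTHFD1L to MTHFD1 and -0.63 ± 0.02 for MTHFD2 to MTHFD1 (SE, n = 4 per group). Each had p = 0.0286 in an exact two-sided permutation test, the smallest that 4 against 4 libraries allow. After adjustment over the 6 ratio tests it was 0.0571, which misses 0.05. At that smallest p the adjusted value depends on how many of the 6 tests reach it, not on the size of a difference. Under MKC8866 the same ratios overlapped between the groups, at a mean of 12.6 in Vehicle and 12.1 in MKC8866 for SHMT2 to SHMT1, 0.419 and 0.423 for MTHFD1L to MTHFD1, and 2.51 and 2.42 for MTHFD2 to MTHFD1 (exact permutation adjusted p 0.171, 0.83 and 0.171). By number, the SHMT2 to SHMT1 ratio was lower in MKC8866 in 4 of 4 pairs, with p = 0.125 in an exact sign-flip permutation test, the smallest that 4 pairs allow.

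**Figure D4:**
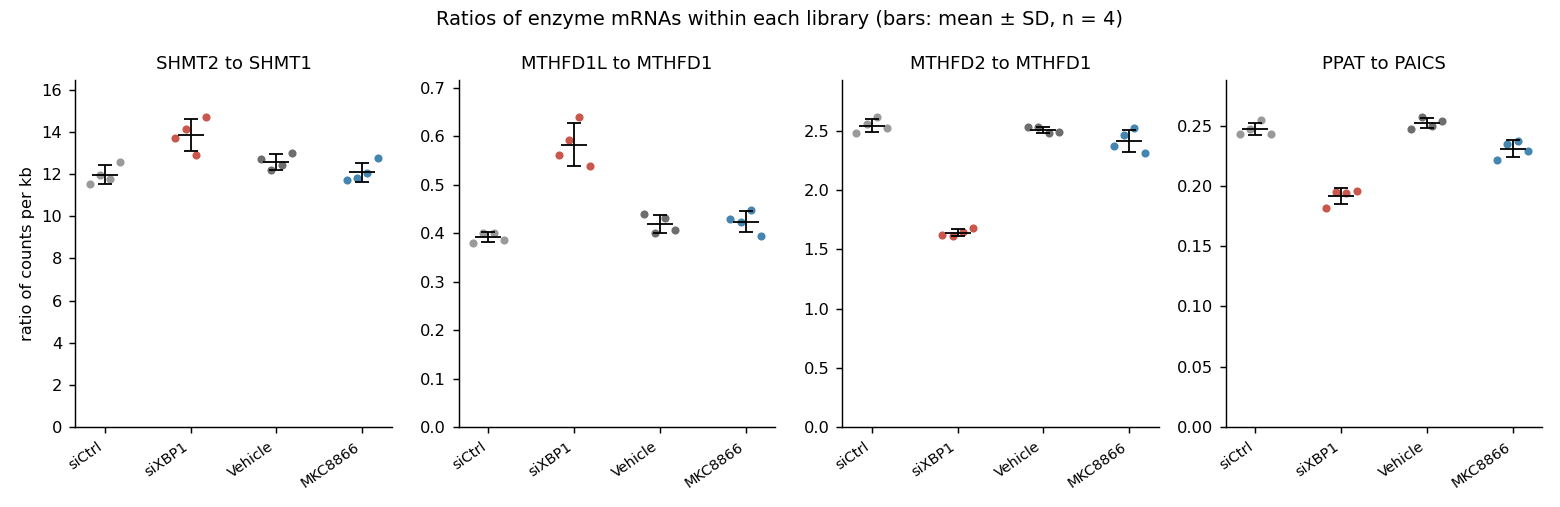
Ratio of counts per kb between enzyme pairs in each library (vertical axes from 0), with black bars for the mean and SD of the 4 libraries of each group. The siXBP1 points lie above siCtrl for SHMT2 to SHMT1 and MTHFD1L to MTHFD1 and below it for MTHFD2 to MTHFD1 (means 2.55 and 1.64) and PPAT to PAICS (0.247 and 0.192), and the MKC8866 points stay nearer to Vehicle.

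Genes around the 10 enzymes included some called in either direction after knockdown. Of 20 other folate genes 19 were tested, 4 fell and 2 rose, with a median log2 fold change of -0.11. These counts are to be read against the 18.2% lower and 16.5% higher over all genes, and those of the folate list are near them. DHFR2, a mitochondrial dihydrofolate reductase, fell from 12.7 to 13.8 CPM in siCtrl to 6.998 to 8.34 in siXBP1 (log2 -0.83, adjusted p = 1.64e-08, edgeR quasi-likelihood). MTHFD2L, the isozyme of MTHFD2, fell from 9.05 to 10.9 CPM to 5.87 to 6.90 (log2 -0.67, adjusted p = 2.54e-06, edgeR quasi-likelihood). Both dehydrogenases of this mitochondrial step therefore fell.

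In the glycine cleavage system, which also loads mitochondrial folate, the members that were called went opposite ways. GCSH, its lipoyl carrier, fell by 0.91 (adjusted p = 1.34e-05) and GLDC, its decarboxylase, rose by 0.52 on the log2 scale (adjusted p = 9.40e-05, edgeR quasi-likelihood). MTFMT, which formylates the mitochondrial initiator tRNA, rose by 0.67 (adjusted p = 1.04e-08, edgeR quasi-likelihood). Its level was 12.3 to 13.2 CPM in siCtrl, 19.6 to 21.02 in siXBP1 and 18.2 to 19.7 in Vehicle, so siCtrl was the group that stood apart.

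Of 14 other purine genes 5 fell and 3 rose, with a median of -0.05. They included IMPDH1, which leads to guanine nucleotides and fell by 0.26 (adjusted p = 8.21e-05, edgeR quasi-likelihood). Among 10 genes of serine and methionine supply 4 fell and 2 rose (median -0.03). MTRR, the reductase that keeps methionine synthase active, was at 61.5 to 66.5 CPM in siCtrl and 42.6 to 44.3 in siXBP1 and fell by 0.57 (adjusted p = 8.20e-10, edgeR quasi-likelihood). Of 5 genes of pyrimidine synthesis, the parallel nucleotide pathway, 4 fell and none rose (median -0.31).

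With MKC8866 a single gene of the 48 tested on these lists was called, IMPDH1, at 73.6 to 79.6 CPM in Vehicle and 60.6 to 70.3 in MKC8866 (log2 -0.21, adjusted p = 0.00885, edgeR quasi-likelihood). It was also lower in Vehicle than in siCtrl (log2 -0.31, adjusted p = 2.10e-05, edgeR quasi-likelihood), and its siXBP1 level of 76.3 to 82.7 CPM was not below that of Vehicle. Blocked on the replicate number 7 of the 48 were called, 6 lower and 1 higher, where 7.05% of all genes were called lower and 6.0% higher. Transcripts of known regulators are given for reference. MYC was at 79.3 to 86.7 CPM in siCtrl, 54.0 to 63.1 in siXBP1, 60.7 to 71.9 in Vehicle and 68.8 to 77.7 in MKC8866. It fell by 0.50 with siXBP1 (adjusted p = 3.24e-08) and was not called with MKC8866 (log2 0.16, adjusted p = 0.0963, edgeR quasi-likelihood), while the fit blocked on the number called it higher there (adjusted p = 2.85e-04). MYC was also lower in Vehicle than in siCtrl (log2 -0.32, adjusted p = 6.30e-05, edgeR quasi-likelihood), and its siXBP1 range overlapped that of Vehicle. ATF4 changed by -0.05 with siXBP1 (adjusted p = 0.382) and by -0.17 with MKC8866 (adjusted p = 0.00715, edgeR quasi-likelihood).

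**Figure D5:**
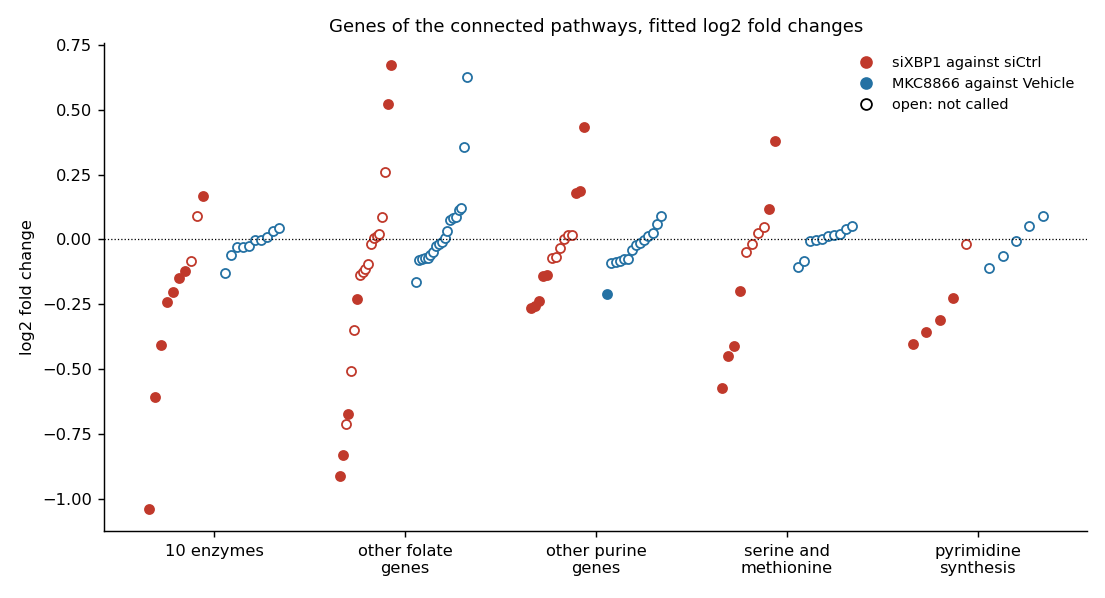
Fitted log2 fold changes of the 10 enzymes and of the tested genes of 4 connected lists, for siXBP1 against siCtrl (red) and MKC8866 against Vehicle (blue); each dot is a gene, and open dots were not called. The red dots of the 10 enzymes reach down to -1.04, and among the blue dots the single filled one is IMPDH1. The fits shown are unpaired.

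The counting leaves some exon sequence out of these values. Fragments were counted without regard to strand, and those that overlap 2 genes were not counted. By the reference annotation 33.2% of the MTHFD2 exon bases overlap another gene on the opposite strand, 11.04% of MTHFD1, 9.51% of SHMT2 and 2.22% to 3.55% of PPAT, SHMT1 and GART. These bases are part of the exon length used per kb. MTHFD1L, PAICS, ADSL and ATIC overlap none. Pseudogenes named after 5 members (MTHFD1, MTHFD2, PAICS, PPAT and SHMT1) had counts of their own equal to 0.228% to 1.33% of the member's, and fragments that fit more than 1 place were not counted.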

How the data were processed

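RNA-seq of 16 LNCaP libraries was analysed (4 groups of 4). Per the labels and the study's methods, the authors aligned reads with STAR 2.5.2a to GRCh38 and deposited counts of fragments per gene from featureCounts 1.5.0 with an Ensembl annotation, with no normalization and no use of strand. Totals ran from 28713607 to 34509488 (median 30743136), so the spread between libraries limits precision (biological coefficient of variation 5.40% and 4.97%). The study calls the replicates independent samples without saying whether they were separate cultures, so p-values measure the spread between these libraries, which may be technical.

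siXBP1 was set against siCtrl and MKC8866 against Vehicle in R 4.3.3 with edgeR 4.0.16 (TMM, quasi-likelihood F test, two-sided) on the genes for which both groups had a library above 5 counts, with Benjamini-Hochberg adjustment over all genes tested and calls under 0.05. The difference between the responses, and Vehicle against siCtrl, came from 1 fit of all 16 libraries. CPM used the TMM library sizes, and exon lengths came from the count table. Ratios were tested by exact permutation in numpy 2.4.6. The code was tested on simulated data. No library was a copy of another.

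Same-numbered libraries of the inhibitor experiment deviated together (correlations 0.102 to 0.379 over 15037 genes), and 3 of the 4 numbers correlated best with their own. The numbers were therefore taken to pair them, and the blocked value stands beside a result whose call it changes. The lowest of these correlations was no higher than the highest between the controls (0.128). Other pairs averaged -0.077, which is no separate check, since deviations from a group mean sum to 0. Alternatives were DESeq2 1.42.0, its size factors in edgeR, no filter, at least 10 counts in every library, the block, other sets of libraries, and each library left out.

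The members and gene lists were chosen with earlier results of these data known. Named genes are the members, XBP1, MYC, ATF4, PFAS, MTHFD2L and any listed gene called with a log2 fold change of at least 0.5 in size and at least 1 CPM. IMPDH1, KRT14 and the other marker genes were named after their values were seen.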

Additional observations from a re-analysis of the deposited data

Results flagged for a closer look

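SHMT2 in Vehicle replicate 2 stood at 813 CPM, apart from the other 3 Vehicle libraries at 884 to 897 CPM. The gap was 0.846 of the group's range, above the critical value of Dixon's test. It was 1 of 40 groups of 4 libraries examined, where chance flags about 1 in 20, and SHMT2 was not called between these groups with or without it.

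The responses to siXBP1 and to MKC8866 differed in 7 enzymes by the interaction test of edgeR (quasi-likelihood). The knockdown response was lower by the following differences on the log2 scale. It was -0.98 for MTHFD2, -0.47 for PPAT, -0.40 for MTHFD1, -0.23 for PAICS, -0.19 for GART, -0.18 for ADSL and -0.15 for SHMT1. The experiment and the kind of inhibition cannot be told apart here.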

How the results depend on the processing

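No result reversed its direction under any alternative with a call on either side. After knockdown 2 members were called higher with DESeq2 and with at least 10 counts in every library, SHMT2 being the addition (adjusted p = 0.0349 and 0.0431), and 0 to 2 when 1 library was left out. SHMT1 lost its call with no filter (edgeR adjusted p = 0.0623). With MKC8866, 1 member was called lower with the replicate block (PPAT), and 0 to 1 when 1 library was left out. The block raised the calls over all genes to 1484 lower and 1262 higher, and higher calls were 180 without MKC8866 replicate 1, 186 without replicate 3 and 496 without replicate 2, against 287. The difference between the responses had 2 members higher with the replicate block, SHMT2 and MTHFD1L. SHMT1 was not called there with DESeq2-style size factors or no filter (adjusted p = 0.0530 and 0.148), nor ADSL with no filter (0.0931, edgeR in each). Between the controls 0 members were higher with DESeq2-style size factors, no filter, at least 10 counts, the block, or the siCtrl and Vehicle libraries only, 1 was lower with no filter and with the block, and leaving out 1 library gave 0 to 1 higher and 1 to 2 lower. The cause of these moves was not tested. Numbers did not pair the knockdown libraries (correlations 0.00018 to 0.068), where the block changed no member's call, nor the controls (-0.16 to 0.13).

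Leaving out 1 library, the log2 ratio differences after knockdown kept within 0.18 to 0.25 for SHMT2 to SHMT1, 0.52 to 0.61 for MTHFD1L to MTHFD1 and -0.65 to -0.62 for MTHFD2 to MTHFD1. With MKC8866 MTHFD2 to MTHFD1 kept within -0.076 to -0.034. Without MKC8866 replicate 3 it reached the smallest p that 3 against 4 libraries allow (exact permutation, adjusted p = 0.0429). The adjusted value at that limit depends on how many of the 6 tests reach it. It therefore does not set this small difference above the larger ones after knockdown. By replicate block the ratios can reach no p under 0.125 (exact sign-flip permutation, 4 pairs).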
